A study of Mus musculus with 4 samples.

Results

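The Notch pathway was described through 10 genes, the receptors Notch1, Notch2, Notch3 and Notch4, the ligands Jag1, Jag2, Dll1 and Dll4, and the target genes Hey1 and Heyl. Their rows were taken by symbol from the gene count matrix, all 10 were found, and they are 10 of 31053 genes measured. They held 21821 UMIs, the tagged molecules counted by the assay, in the 8255 cells kept.

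Notch receptors are read by direct contact: a Delta-like or Jagged ligand on a neighbouring cell pulls on the receptor, which is cut first by an ADAM protease and then by gamma-secretase. The freed intracellular part joins RBPJ in the nucleus and switches on genes of the Hes and Hey families, which encode transcriptional repressors. The pathway is known for setting arterial identity and sprouting in blood vessels, for recruiting and maintaining the mural cells that wrap them, and for holding back osteoblast differentiation of marrow stromal cells.

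The series holds single-cell RNA sequencing of cells digested from proximal and distal tibia at postnatal day 6 (P6), pooled from 2 tibiae of 1 male mouse and not sorted on tdTomato. The mouse carried Col10a1Cre, Rosa26-Tdtomato, Irx3 +/Δ and Irx5 +/-, and is named an Irx3/5 heterozygous control. All cells described here came from this mouse. Cre is driven by Col10a1, the collagen gene of hypertrophic chondrocytes (HCs), so the reporter marks HCs and their descendants. The study writes the Irx3 allele as +/ΔHC, a deletion in the HC lineage. HCs and their descendants may thus differ from other cells in Irx3 as well. The 4 sequencing entries are 1 library, so nothing could be tested against replicates. A level is the UMI sum of a gene in a class per 1000000 UMIs of all genes there (CPM), and the values in brackets are 95% intervals that cover counting error only.

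Of 14181 barcodes, 8255 were kept, with 2623 to 85279 UMIs each and a median of 13957. They fell into 28 clusters, of which 23 were given 18 class names from marker genes, and 5 clusters with 569 cells stayed unnamed. None of the 10 genes, nor the 40 other pathway genes, was used to build the clusters. All 12 general endothelial markers were highest in the endothelial-like cells. Of the mural markers, 10 of 12 were highest in the mural-like cells, the pericytes and smooth muscle cells of vessel walls. These classes held 817 and 102 cells. The mural-like cells also held 397 CPM of the summed endothelial markers, against 8062 CPM in endothelial-like cells. Of the summed chondrocyte markers they held 6402 CPM, against 79476 CPM in chondrocyte-like cells. Of the summed erythroid markers they held 24377 CPM, against 254915 CPM in erythroid-like cells. The part of RNA from these other cell types in the mural levels was not tested. Names of some other classes used below had less support. Highest in their own class were 3 of 6 monocyte, 4 of 9 immature osteoblast and 1 of 5 hypertrophic chondrocyte markers, against 6 of 7 mature osteoblast markers. The monocyte-like cluster had 0 monocyte markers among its 10 leading genes and was named by its mean z-score. The dendritic cell-like class was 1 cluster led by Cd7, Siglech, Ly6d and Ccr9, so its levels are not those of dendritic cells of every kind.

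Of the 10 genes, 9 were highest in the endothelial or the mural group, when the classes were joined into endothelial, mural, stromal, osteoblast, chondrocyte and blood groups. Among the 8512 genes that reached 20 CPM in a group, 42% were highest in the endothelial or mural group. Notch1, Notch4, Jag2, Dll1 and Dll4 were highest in endothelial cells, against 24.3% of all genes, and Notch3, Jag1, Hey1 and Heyl in mural cells, against 17.8%. Notch2 was the exception and was highest in the stromal group, against 12.4%. No member was highest in the osteoblast, chondrocyte or blood group, where 5.35%, 13.5% and 26.8% of all genes were. A level over 2-fold above every other group was reached by Notch4, Jag2, Dll1 and Dll4 in endothelial cells (5.73% of all genes) and by Notch3, Hey1 and Heyl in mural cells (2.56% of all genes). None did so in the stromal, osteoblast, chondrocyte or blood group, where 1.86%, 0.858%, 3.16% and 7.85% of all genes did. Notch4, Jag2, Dll1 and Dll4 passed the 20 CPM minimum only through the endothelial group, and their next groups held 3.76 to 7.52 CPM. Their call over 2-fold thus follows in part from that minimum. For Jag2 it also follows from joining 9 blood classes, since dendritic cell-like cells held 32.6 CPM against 47.2 CPM in endothelial-like cells. With 1 library these counts describe the genes of 1 mouse. The shares of all genes are given for reference only, and the members' counts are not read against them.

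**Figure D1:**
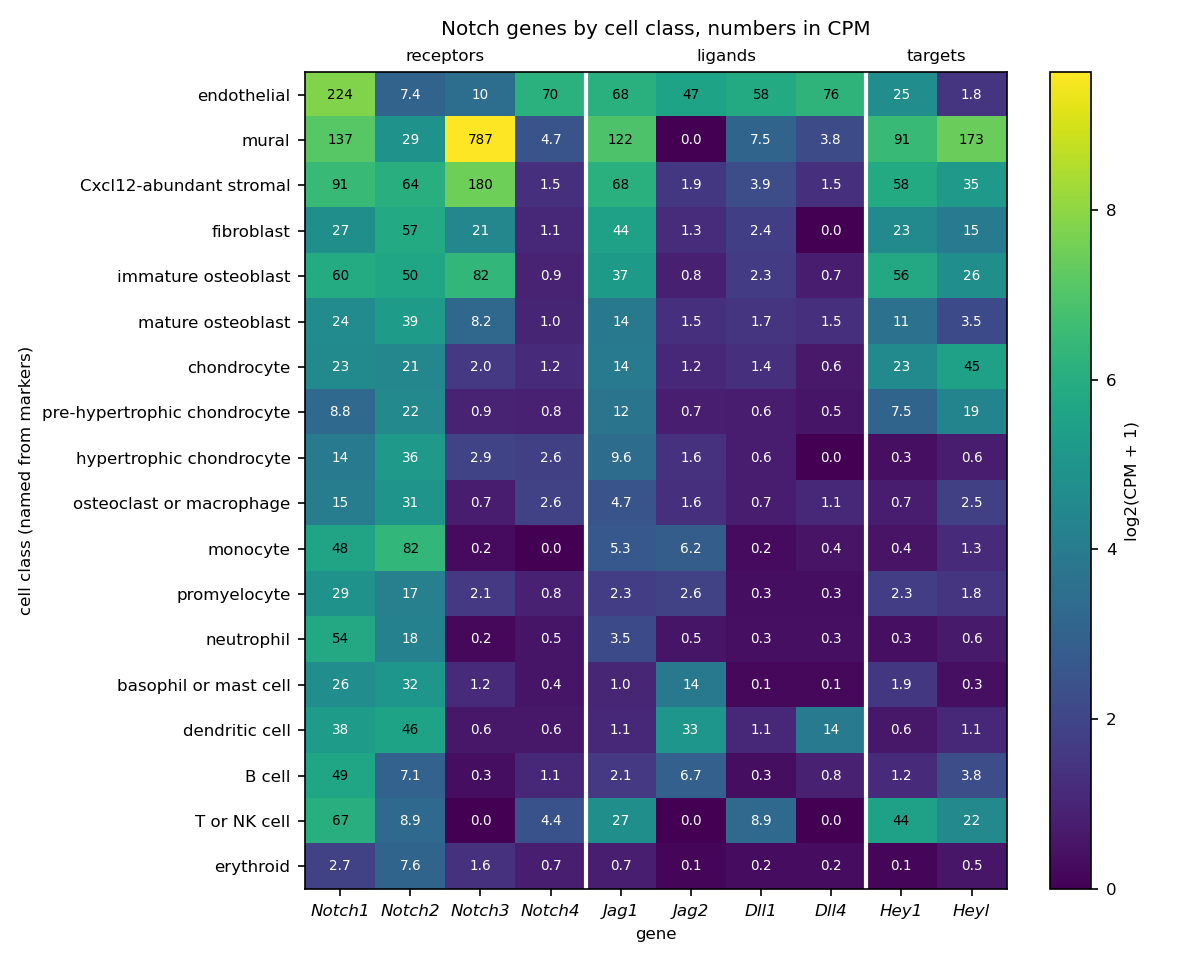
Level of each gene (columns, by role) in each of the 18 named cell classes (rows), coloured by log2(CPM + 1) with the CPM printed in each cell. The top rows, endothelial and mural, hold the highest level of every gene but Notch2, which is highest in the monocyte row at 81.8 CPM.

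Notch1 (ENSMUSG00000026923, chr2:26457903-26516663 on the reverse strand, GRCm38), the receptor with the broadest known use in development, was found in every class. Its level was 224 CPM (215 to 234) in endothelial-like cells, 137 CPM (116 to 161) in mural-like cells and 91.2 CPM (79.9 to 104) in Cxcl12-abundant stromal-like cells, the reticular cells of the marrow. The endothelial level was above the mural one by 0.70 (0.46 to 0.95) on the log2 scale, and the intervals of these 3 classes did not overlap. T or NK cell-like cells held 66.5 CPM (37.2 to 109.7), from 15 UMIs. Immature osteoblast-like cells held 60.1 CPM, neutrophil-like cells 54.4 CPM, B cell-like cells 49.0 CPM and monocyte-like cells 47.6 CPM. The B cell level joined unlike clusters, 78.3 CPM (68.2 to 89.6) in 316 cells and 31.4 CPM (26.4 to 36.9) in 374 cells. The higher of these overlapped with the Cxcl12-abundant level. Most neighbours in the order below the Cxcl12-abundant cells did not differ beyond counting error. The lowest level, 2.73 CPM (1.71 to 4.13), was in erythroid-like cells, the red cell precursors, which serve as the measure of free RNA for genes they should lack. In cartilage it was 23.2 CPM in chondrocyte-like cells and 8.82 CPM in pre-hypertrophic cells, a log2 ratio of 1.30 (1.02 to 1.59). Hypertrophic cells held 14.1 CPM of Notch1, above the pre-hypertrophic level by a log2 ratio of 0.62 (0.12 to 1.11), so the order was not a steady fall. The share of cells with a Notch1 UMI was 83.1% before and 65.5% after each cell was thinned to 5000 UMIs in endothelial-like cells and 3.42% before and 0.951% after thinning in erythroid-like cells, whose median depths were 9002 and 12874 UMIs.

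Notch2 (ENSMUSG00000027878, chr3:98013527-98150361 on the forward strand) had a pattern of its own. It was highest in monocyte-like cells at 81.8 CPM (73.8 to 90.4), followed by Cxcl12-abundant stromal-like cells at 63.7 CPM (54.4 to 74.2), fibroblast-like cells at 57.5 CPM (50.003 to 65.7), immature osteoblast-like cells at 49.9 CPM (44.9 to 55.2) and dendritic cell-like cells at 46.5 CPM (37.1 to 57.5). Only the step from the monocytes to the next class lay beyond counting error, and each later neighbour in the order overlapped with the next. An unnamed cluster of 174 cells led by Tnf, Ccl3 and Treml4 held 105 CPM (87.0 to 126). Endothelial-like cells held 7.41 CPM (5.81 to 9.32), close to the 7.57 CPM (5.79 to 9.72) of erythroid-like cells, so that the log2 ratio of monocyte-like over endothelial-like cells was 3.299 (2.97 to 3.64). Within cartilage, Notch2 was higher in hypertrophic chondrocyte-like cells, at 36.2 CPM, than in chondrocyte-like cells, at 20.98 CPM. That log2 ratio was 0.76 (0.47 to 1.04), the opposite order to Notch1. After thinning, 12.6% (6.48 to 21.5%) of hypertrophic and 10.1% (8.52 to 11.8%) of other chondrocyte-like cells had a UMI, and these shares overlapped.

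Notch3 (ENSMUSG00000038146, chr17:32120820-32166852 on the reverse strand), the receptor known from smooth muscle of small arteries, was a mural gene with a stromal shoulder. It reached 787 CPM (735 to 843) in mural-like cells and was found in 100 of 102 cells, with 95.7% (89.4 to 98.8%) after thinning. Cxcl12-abundant stromal-like cells followed at 180.0 CPM (164 to 197), immature osteoblast-like cells at 81.5 CPM (75.1 to 88.3) and fibroblast-like cells at 20.8 CPM (16.4 to 26.0). Each of these steps lay beyond counting error. Mature osteoblast-like cells held 8.22 CPM (6.36 to 10.5), a log2 ratio of 3.16 (2.83 to 3.51) for immature over mature osteoblasts, and chondrocyte-like cells held 2.05 CPM. The log2 ratio of mural-like over endothelial-like cells was 6.13 (5.85 to 6.41), which is 70.1-fold. Of the 101 Notch3 UMIs in endothelial-like cells, 60 came from a sub-cluster of 16 cells that also held 731 CPM of the mural gene Rgs5 and counted 5 barcodes marked as doublets. An alternative left out 5 endothelial sub-clusters of 151 cells, with 3 to 8 markers of another cell type among their 10 leading genes. The log2 ratio was then 7.22, and over all 14 alternative settings it ran from 5.30 to 7.22. A sub-cluster of 107 cells led by Bglap and Col1a1, with 2 such markers, was kept.

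Notch4 (ENSMUSG00000015468, chr17:34564268-34588503 on the forward strand), a receptor known from endothelium, was over 2-fold higher in the endothelial group than in every other group. It stood at 69.8 CPM (64.7 to 75.3) there, with a UMI in 359 of 817 cells, and no other class passed 4.70 CPM. That next level, in mural-like cells, rested on 5 UMIs, and monocyte-like cells had none, which allows up to 0.64 CPM. The classes after the endothelial one did not differ from their neighbours in the order.

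**Figure D2:**
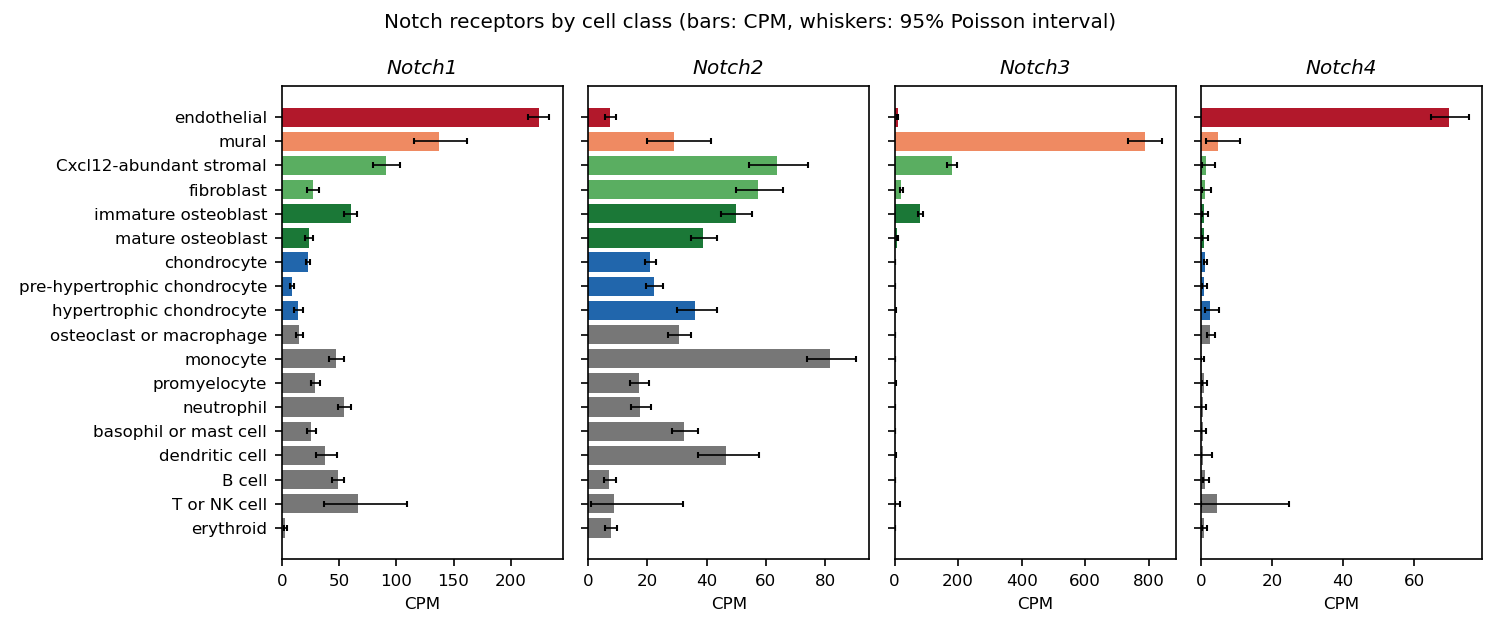
Level of the 4 receptors in CPM (x axis, linear from 0, one scale per panel) in the 18 cell classes (y axis), with bars coloured by class group and whiskers for the 95% Poisson interval. Notch1 and Notch4 are longest in the endothelial row, Notch3 in the mural row and Notch2 in the monocyte row.

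Jag1 (ENSMUSG00000027276, chr2:137081456-137116644 on the reverse strand), the Jagged ligand known for signalling to smooth muscle, was the most widely spread ligand. Mural-like cells held 122 CPM (102 to 145) and had a UMI in 62 of 102 cells. Endothelial-like cells at 68.3 CPM (63.2 to 73.7) and Cxcl12-abundant stromal-like cells at 68.0 CPM (58.3 to 78.8) did not differ beyond counting error. The endothelial level joined unlike clusters, 391 CPM (347 to 440.2) in 71 cells led by arterial genes and 43.1 CPM (39.0 to 47.6) in the other 746 cells, so the mural level was above that of the larger cluster and below that of the smaller one. Fibroblast-like cells held 44.0 CPM and immature osteoblast-like cells 37.3 CPM, while the level in mature osteoblast-like cells was 13.95 CPM, a log2 ratio of 2.21 (1.87 to 2.54) for the Cxcl12-abundant over the mature osteoblast-like cells. Taking both osteoblast classes together, the log2 ratio of endothelial over osteoblast-lineage cells was 1.41 (1.23 to 1.58), which is 2.65-fold. That ratio joined unlike clusters on both sides. The endothelial cluster of 746 cells, at 43.1 CPM (39.0 to 47.6), overlapped with immature osteoblast-like cells at 37.3 CPM (33.0 to 42.0). The 3 chondrocyte classes lay between 9.62 and 14.1 CPM, and erythroid-like cells held 0.745 CPM.

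Jag2 (ENSMUSG00000002799, chr12:112907819-112929776 on the reverse strand), the other Jagged ligand, was shared by endothelium and some blood cells. Endothelial-like cells held 47.2 CPM (43.0 to 51.7), dendritic cell-like cells 32.6 CPM (24.8 to 42.1), basophil or mast cell-like cells 13.7 CPM (11.0 to 16.8) and B cell-like cells 6.72 CPM (4.97 to 8.88). Each of these steps lay beyond counting error, but the first rested on 1 of the 2 endothelial clusters. The cluster of 71 cells led by the arterial genes Eln, Gja4 and Sema3g held 281 CPM (243 to 322), and the other, with 746 of the 817 cells, held 29.0 CPM (25.6 to 32.7), which overlapped with the dendritic level. In the 102 mural-like cells no Jag2 UMI was counted, which allows up to 2.82 CPM, and the stromal, osteoblast and chondrocyte classes lay between 0.743 and 1.93 CPM. Jag2 and Jag1 thus had unlike orders outside the endothelium, with Jag1 in mural and stromal cells and Jag2 in dendritic and basophil cells.

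Dll1 (ENSMUSG00000014773, chr17:15367354-15376872 on the reverse strand) and Dll4 (ENSMUSG00000027314, chr2:119325784-119335962 on the forward strand) are Delta-like ligands, and Dll4 is known for restraining vessel sprouting. Dll1 stood at 57.9 CPM (53.2 to 62.8) in endothelial-like cells, and the next class by level, T or NK cell-like cells, rested on 2 UMIs. Mural-like cells held 7.52 CPM (3.25 to 14.8), and no skeletal or stromal class passed 3.86 CPM. Dll4 stood at 75.8 CPM (70.5 to 81.5) in endothelial-like cells and was found in 319 of 817 cells. Dendritic cell-like cells came next at 14.4 CPM (9.39 to 21.1), from 26 UMIs, and the log2 ratio of endothelial-like cells over them was 2.32 (1.79 to 2.89), which is 4.99-fold. Over 14 alternative settings that log2 ratio ran from 1.82 to 3.75. Mural-like cells held 3.76 CPM from 4 UMIs, while fibroblast-like and hypertrophic chondrocyte-like cells had none, which allows up to 0.809 and 0.962 CPM. After thinning, 25.5% (22.4 to 28.9%) of endothelial-like, 8.84% (4.79 to 14.6%) of dendritic cell-like and 0.19% (0.00481 to 1.05%) of erythroid-like cells had a Dll4 UMI, against 39.0%, 13.4% and 0.38% before. The dendritic cell-like share lay above the erythroid one.

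Both targets were highest in mural-like cells among whole classes, but Hey1 was higher in 1 of the 2 endothelial clusters. Hey1 (ENSMUSG00000040289, chr3:8663359-8667256 on the reverse strand) stood at 91.1 CPM (73.9 to 111) in mural-like cells, 57.6 CPM (48.7 to 67.6) in Cxcl12-abundant stromal-like cells and 55.6 CPM (50.3 to 61.2) in immature osteoblast-like cells, and the last 2 did not differ. Endothelial-like cells held 25.3 CPM (22.2 to 28.6), fibroblast-like cells 23.5 CPM and chondrocyte-like cells 23.5 CPM, which also overlapped. Of the endothelial Hey1 UMIs, 54.6% came from the 98 cells of an arterial sub-cluster, at 132 CPM (110.4 to 156), which just overlapped with the mural level, and the endothelial cluster of 71 cells held 161 CPM (133 to 194), while the other endothelial cluster held 14.7 CPM (12.3 to 17.4). Mature osteoblast-like cells held 11.2 CPM, a log2 ratio of 2.26 (1.90 to 2.63) for the Cxcl12-abundant over the mature osteoblast-like cells. In T or NK cell-like cells the 44.4 CPM rested on 10 UMIs in 2 of 29 cells.

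Heyl (ENSMUSG00000032744, chr4:123233556-123249875 on the forward strand) was highest in mural-like cells at 173 CPM (149 to 199.7) and was near the background in endothelial-like cells at 1.83 CPM (1.08 to 2.89). Their log2 ratio was 5.94 (5.44 to 6.43), which is 61.5-fold. Of the 18 endothelial Heyl UMIs, 13 came from the same sub-cluster of 16 cells as most Notch3 UMIs there. The ratio was 111.8-fold without the 5 sub-clusters left out for Notch3. In cells with at most 5% mitochondrial UMIs it was 21.6-fold, from 22 mural-like and 278 endothelial-like cells. Cartilage was the next source, with 44.6 CPM (42.2 to 47.1) in chondrocyte-like cells, and its 3 clusters lay between 40.7 and 46.0 CPM. Cxcl12-abundant stromal-like cells held 35.2 CPM and immature osteoblast-like cells 26.4 CPM. Of all Heyl UMIs in the cells kept, 62.9% came from the 1800 cells of the chondrocyte group and 7.87% from the 102 mural cells.

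Both targets were lower in maturing cartilage, by the named classes. The unnamed cluster of 170 cells rich in Col2a1 was not placed in this order and held 14.9 CPM of Heyl and 12.1 CPM of Hey1. Heyl was 44.6 CPM in chondrocyte-like, 19.2 CPM in pre-hypertrophic and 0.641 CPM in hypertrophic chondrocyte-like cells, the last from 2 UMIs, and the log2 ratio of the first over the last was 4.80 (3.78 to 5.41). Hey1 went from 23.5 to 7.52 and 0.321 CPM in the same order, the last from 1 UMI, with a log2 ratio of 4.21 (3.13 to 4.61). The shares of cells with a UMI gave the same order after thinning: 18.4% (16.4 to 20.6%), 10.4% (7.36 to 14.2%) and 1.15% (0.0291 to 6.24%) for Heyl. Hypertrophic cells were the deepest class, with a median of 36327 UMIs against 19378.5 in chondrocyte-like cells.

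**Figure D3:**
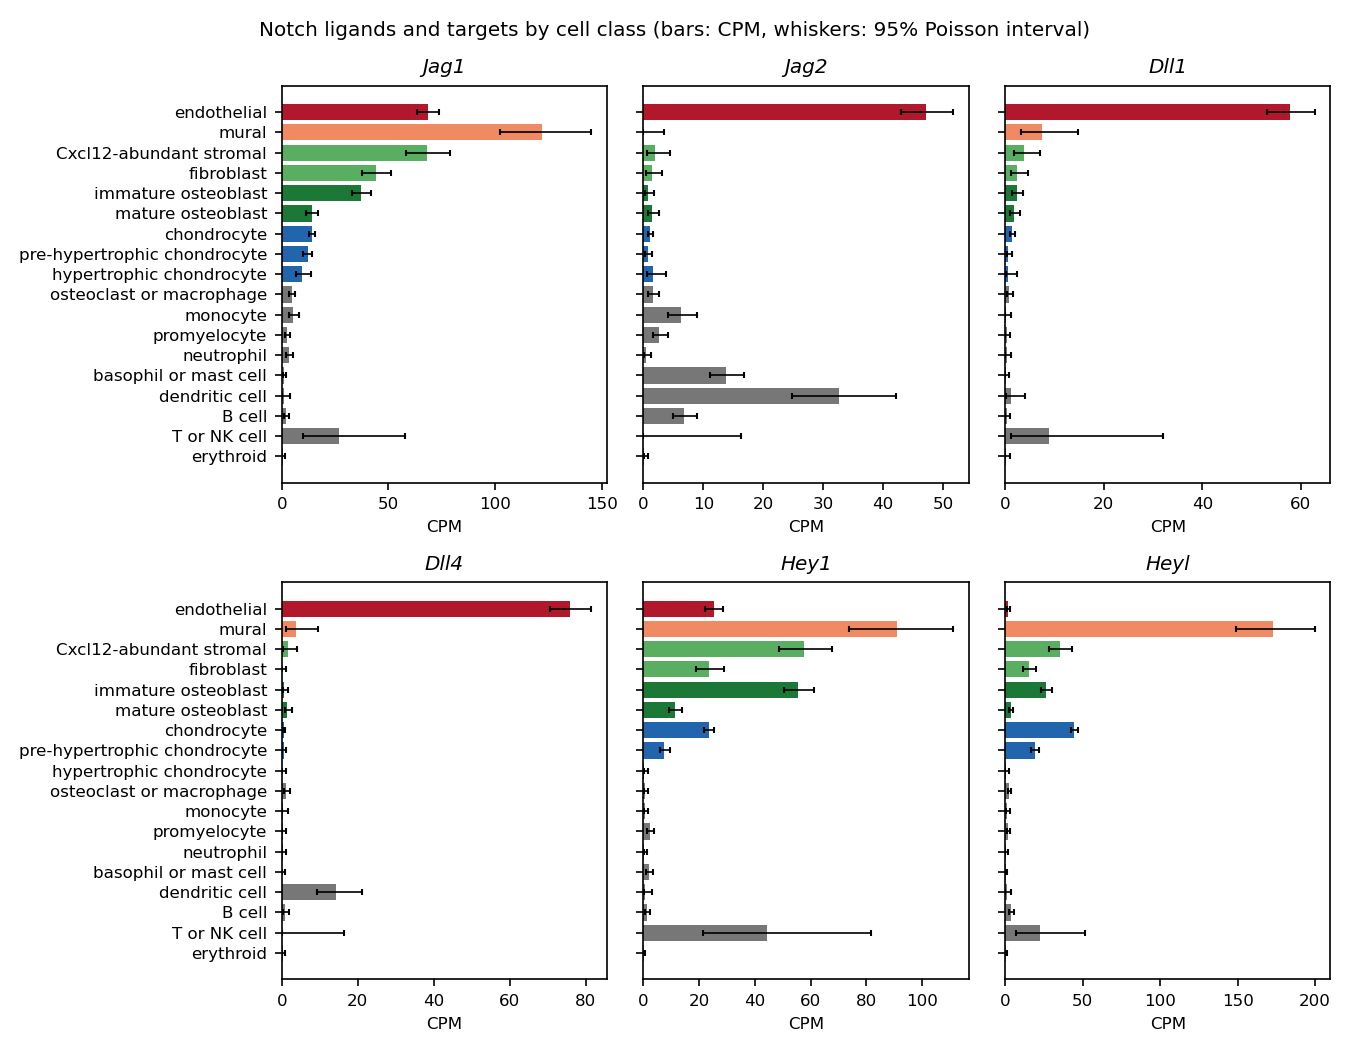
Level of the 4 ligands and 2 targets in CPM (x axis, linear from 0, one scale per panel) in the 18 cell classes (y axis), with bars coloured by class group and whiskers for the 95% Poisson interval. Dll1, Dll4 and Jag2 are longest in the endothelial row. Jag1, Hey1 and Heyl are longest in the mural row and reach into the stromal, osteoblast and chondrocyte rows, and Heyl is next longest in the chondrocyte row.

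Endothelial cells were clustered again on their own, again without the pathway genes. Of 12 sub-clusters, 1 with 98 cells was named arterial endothelial-like, with Gja4, Gja5 and Sema3g among its leading genes, and 1 with 96 cells was named sinusoidal endothelial-like, with Stab2 at 404 CPM against 0.968 CPM in the arterial cells. The other 10 were not named, and 4 of them, with 16 to 45 cells each, held 5 to 30 barcodes marked as doublets. Of the 10 members, 6 were over 2-fold higher in the arterial sub-cluster, Dll1 and Heyl differed by less than 2-fold, and Notch2 and Notch3 had log2 ratios of -1.63 (-3.14 to 0.10) and -0.90 (-2.41 to 0.60), which rested on 2 to 9 UMIs a value and whose intervals included 0. Of the 6647 genes that reached 20 CPM in either sub-cluster, 14.3% were over 2-fold higher and 7.1% over 2-fold lower in the arterial. That minimum left out Notch2, Notch3 and Heyl, and Jag2 and Hey1 passed it only through the arterial cells, so the members' count is a description and is not read against these shares.

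The largest ratio was that of Jag2, with 226 CPM (197 to 256.4) in arterial and 5.41 CPM (1.98 to 11.8) in sinusoidal cells and a log2 ratio of 5.14 (4.13 to 6.26). Hey1 followed with 132 CPM (110.4 to 156) and 4.51 CPM (1.46 to 10.5), a log2 ratio of 4.59 (3.497 to 5.78). Both sinusoidal values rested on few UMIs, 6 and 5. Jag1 stood at 261 and 33.3 CPM, a log2 ratio of 2.93 (2.45 to 3.45), and Notch4 at 208 and 34.2 CPM, a log2 ratio of 2.57 (2.08 to 3.09). Dll4 stood at 201 and 53.2 CPM, a log2 ratio of 1.90 (1.49 to 2.33), and Notch1 at 465 and 160.4 CPM, a log2 ratio of 1.53 (1.28 to 1.78).

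Dll1 stood apart from these ligands. It was 53.2 CPM (40.1 to 69.3) in arterial and 72.1 CPM (57.2 to 89.7) in sinusoidal cells, a log2 ratio of -0.43 (-0.94 to 0.07), so no difference could be seen at this depth. Its level over all 12 sub-clusters ran only from 40.4 to 89.4 CPM. Heyl was at 0.968 and 0.901 CPM, from 1 UMI each, and Notch2 and Notch3 were under 10 CPM in both sub-clusters. Of the 98 arterial cells, 94 held a Notch1 UMI, 75 a Dll4 UMI and 73 both. A Jag1 UMI was held by 66, a Jag2 UMI by 81 and both by 58. Whether these pairs met in a cell more often than their single counts give was not tested.

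An unnamed sub-cluster of 43 cells led by Pgf, Ctsg, Mpo and Cxcr4 came next to the arterial cells, with 158 CPM of Dll4, 133 CPM of Notch4 and 72.8 CPM of Jag2, but 27.7 CPM of Jag1. Pgf and Cxcr4 are known from sprouting endothelium, while Ctsg and Mpo are granule genes of promyelocytes, so no name was given.

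**Figure D4:**
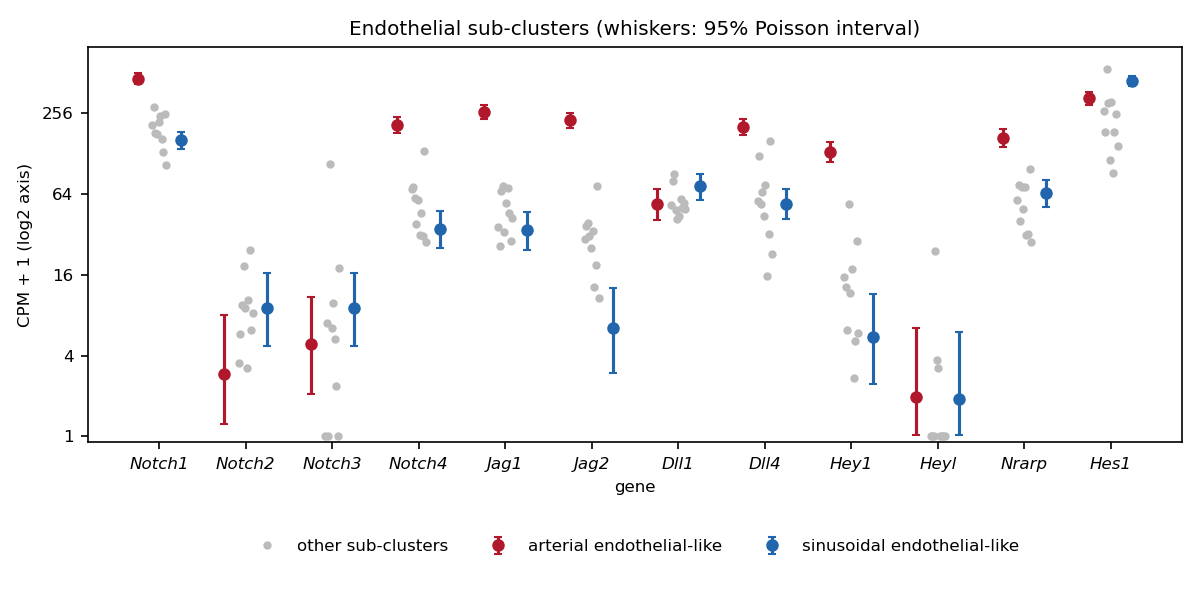
Level of the 10 genes and of the pathway targets Nrarp and Hes1 (x axis) in endothelial sub-clusters, as CPM + 1 on a log2 axis. Red points are arterial and blue points sinusoidal endothelial-like cells with 95% Poisson intervals, grey points the other 10 sub-clusters: red lies above blue for Notch1, Notch4, Jag1, Jag2, Dll4, Hey1 and Nrarp, and not for Dll1 or Hes1.

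Cells with more than 14 UMIs of WPRE, a sequence carried by the tdTomato reporter, counted as HC-derived. By that rule 42 of 234 Cxcl12-abundant stromal-like, 128 of 556 immature and 130 of 387 mature osteoblast-like cells were HC-derived. The study chose this cutoff to match its own measured share of tdTomato-positive HCs. That 72 of 87 hypertrophic chondrocyte-like cells passed it thus does not measure how many HC-derived cells were missed. Cells that did not pass may still include missed HC-derived ones. The cutoff was also passed by 8 of 102 mural-like and 1 of 817 endothelial-like cells. The cutoff was not scaled to depth. Median UMIs of HC-derived and other cells were 11186.5 and 9653.5 in Cxcl12-abundant stromal-like cells. They were 12889.5 and 10857.5 in immature and 19001 and 18955 in mature osteoblast-like cells. In immature osteoblast-like cells, Notch3 was at 51.6 CPM in HC-derived and 94.0 CPM in other cells, a log2 ratio of -0.85 (-1.16 to -0.56). Hey1 was lower too, at 42.8 CPM in HC-derived and 60.8 CPM in other cells, a log2 ratio of -0.50 (-0.84 to -0.17). Notch1 was higher, at 82.9 CPM in HC-derived and 50.7 CPM in other cells, a log2 ratio of 0.70 (0.42 to 0.97), and Notch2 as well, with a log2 ratio of 0.48 (0.17 to 0.78). Jag1 and Heyl had intervals that included 0.

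In mature osteoblast-like cells Notch3, Hey1 and Notch2 kept these directions. The log2 ratios of HC-derived over other cells were -1.12 (-1.92 to -0.34) for Notch3, -0.76 (-1.43 to -0.12) for Hey1 and 0.69 (0.37 to 1.01) for Notch2, while the interval of Notch1 at 0.39 (-0.02 to 0.79) included 0. In this class Notch3 rested on 12 UMIs in HC-derived and 54 in other cells, and Hey1 on 21 and 69. Jag1 was higher in the HC-derived cells here, with a log2 ratio of 0.58 (0.06 to 1.09). In Cxcl12-abundant stromal-like cells, Notch3 had a log2 ratio of -0.13 (-0.48 to 0.21) and Hey1 of -0.40 (-1.07 to 0.22), both with intervals that included 0, and Notch2 one of 0.64 (0.13 to 1.12). Among immature osteoblast-like cells, the HC-derived ones also held more of the summed immature osteoblast markers, 34307 against 20892 CPM, and of the summed mature markers, 8998 against 2462 CPM. Among mature osteoblast-like cells both sums were lower in the HC-derived ones, 12014 against 17268 CPM for immature and 16515 against 29556 CPM for mature markers. The parts of maturation, cell depth, missed HC-derived cells and the Irx3 allele in these ratios were not tested.

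**Figure D5:**
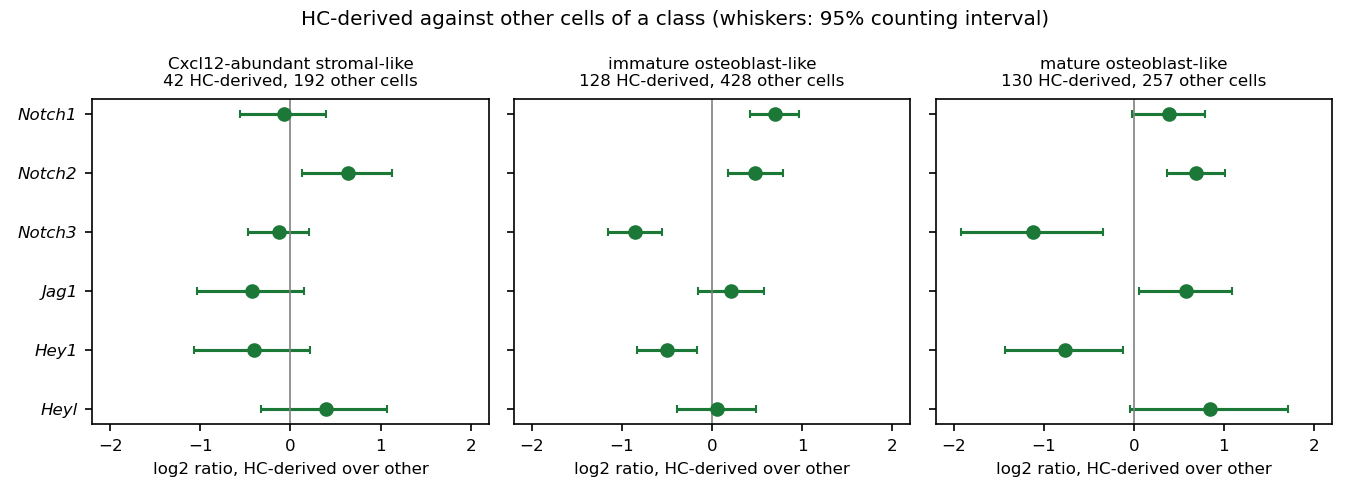
Log2 ratio of CPM in HC-derived over other cells (x axis) for 6 genes (y axis) in 3 classes (panels), with whiskers for the 95% counting interval and a grey line at 0. Notch3 and Hey1 lie left of 0 and Notch2 right of 0 in both osteoblast panels, with intervals that do not cross the line.

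Of 40 other genes of the pathway, 30 reached 20 CPM in a group, and 12 were highest in the endothelial, 7 in the mural, 5 in the stromal, 2 in the chondrocyte, 4 in the blood and none in the osteoblast group. Together 19 of 30 were highest in endothelial or mural cells, where 42% of all genes were. Over 2-fold above every other group were 3 of them in endothelial and 4 in mural cells, where 5.73% and 2.56% of all genes were. Of these, Mfng passed 20 CPM only through endothelial and Hey2 only through mural cells, so the counts are not read against the shares.

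Among receptor-cleaving enzymes, Adam10, which makes the first cut after the ligand binds, was at 192 CPM (183 to 200.4) in endothelial-like cells. It was next highest at 131 CPM (123 to 139) in erythroid-like cells, and was the only one of the 8 cleavage genes over 2-fold above every other group. Of the 8, 7 were highest in the endothelial or mural group, where 42% of all genes were, but by small margins for most, such as 55.7 CPM in endothelial against 55.1 CPM in stromal cells for Adam17. By single class, only Adam10 and Aph1a were highest in endothelial-like or mural-like cells. Mfng, a fringe enzyme that adds sugars to the receptor and changes its choice of ligand, stood at 84.4 CPM (78.7 to 90.3) in endothelial-like and 1.88 CPM (0.228 to 6.79) in mural-like cells. Lfng, another fringe enzyme, was highest in osteoclast or macrophage-like cells at 65.7 CPM (60.3 to 71.4) and dendritic cell-like cells at 49.2 CPM (39.5 to 60.6). Rfng, the remaining fringe gene, reached 20 CPM in no group, and its levels of 23.9 CPM (18.4 to 30.7) in Cxcl12-abundant stromal-like and 20.3 CPM (17.2 to 23.8) in immature osteoblast-like cells overlapped. Mfng and Lfng thus had different leading classes.

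Dlk1, a ligand that lacks the usual Delta motif, reached 319 CPM (286 to 355) in mural-like, 252 CPM (236 to 269) in fibroblast-like and 199.6 CPM (194 to 205) in chondrocyte-like cells, but 8.498 CPM in Cxcl12-abundant stromal-like cells. Dtx3, of the Deltex family, was highest in mural-like cells at 103 CPM (84.9 to 125). Nrarp, a feedback inhibitor switched on by Notch, stood at 170.1 CPM (146 to 197) in mural-like and 67.7 CPM (62.7 to 73.0) in endothelial-like cells, and at 167 CPM (143 to 194) in the arterial against 63.99 CPM (49.98 to 80.7) in the sinusoidal sub-cluster. The 29 T or NK cell-like cells held 226 CPM (168 to 297), from 51 UMIs, and every class but these 3 stayed at or under 10.4 CPM.

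Hes1, a target gene that other pathways also use, was unlike Hey1 and Heyl in its highest class. That class was chondrocyte-like cells at 444 CPM (436 to 452). Hes1 fell in the same order as Hey1 and Heyl in cartilage, to 336 CPM (326 to 348) in pre-hypertrophic and 65.4 CPM (56.7 to 75.03) in hypertrophic cells. It stood at 271 CPM (261 to 282) in endothelial-like cells against 208 CPM (181 to 237) in mural-like cells. In the sinusoidal sub-cluster it was 443 CPM and in the arterial one 331 CPM, a log2 ratio of -0.42 (-0.62 to -0.22) for arterial over sinusoidal. Hey2, a close relative of Hey1, was low but mural, at 29.1 CPM (19.8 to 41.3) from 31 UMIs, and in the endothelium 17 of its 26 UMIs fell in the arterial sub-cluster.

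The letters TGGGAA, the core to which RBPJ binds, were searched on both strands in RefSeq promoter windows of 300 bases, 250 before and 50 after a gene's start, on GRCm38.p6. Of 21 genes looked up, 15 had a window, and none was there to search for Hey1, Heyl, Hes1, Dtx3, Dtx4 or Bhlhe40. Of 32817 windows, 25.6% held a match. Of the targets and feedback genes, 7 had 8 windows, and 4 of these windows held a match, those of Hes5, Hes7, Hey2 and Dtx2. None of the 9 windows of the 8 receptor and ligand genes held one. The Hey2 matches are shown because Hey2, like Hey1 and Heyl, was over 2-fold higher in the mural group than in every other group. So were Hes7, which had a match but reached only 5.64 CPM, Nrarp, whose window held no match, and Dtx3, which had no window. The Hey2 matches begin 207 and 3 bases before the start, at chr10:30842973-30843002 and chr10:30842769-30842798 on the reverse strand, with capitals for the matched letters or their reverse complement.
Hey2 upstream match: tgcgcggtggcaTTCCCAcgcctctgccaa
Hey2 match at the start: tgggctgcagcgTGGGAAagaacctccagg
A match is a description of letters and not of binding.

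Genes most like each member were taken by Pearson's r of log2(CPM + 1) over the 18 classes, among 6789 genes that reached 50 CPM in a class. The classes share 1 library and differ in depth, so r is given as a description. Notch3 was most like Mylk (r = 0.96), Foxs1 and Myl9, all highest in mural-like cells. Jag1 was most like Tmem47 (r = 0.97), Cald1 and Dgkh. Dll1 was most like Stc1 (r = 0.97), Sema3f and Tek, Dll4 most like Flt1 (r = 0.89), Ptprb and Sox18, and Notch4 most like Unc45b (r = 0.95), Flt4 and Cyyr1, all highest in endothelial-like cells. Notch1 was most like Snrk (r = 0.93), Map3k3 and Hipk3, and Notch2 most like Arhgef10l (r = 0.90), Naaa and Ptgs2, all 3 of the latter highest in monocyte-like cells. Jag2 was most like Afap1l1 (r = 0.78), Etv6 and Mir155hg, the last 2 highest in dendritic cell-like cells. Hey1 was most like Adgrl1 (r = 0.93), Ncald and Gjc1, and Heyl most like Cacna2d1 (r = 0.87), Hey1 (r = 0.86) and Snai2.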

How the data were processed

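Cells of 2 tibiae of 1 male P6 mouse were measured as 1 library. UMI counts were deposited by the authors without normalization for 14181 barcodes and 31053 genes, made with Cell Ranger 3.1.0 on mm10 with tdTomato and WPRE sequences added. Per the labels, Seurat 3 was also used. The annotation release and whether counting used strand are not given in the sources used here. A second deposited count matrix of 98 exogenous sequences gave WPRE, joined by barcode.

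Cells with at least 1600 genes, the study's minimum, and at most 10% mitochondrial and 50% ribosomal protein UMIs were kept. After scaling every cell to 10000 and taking logs, from 2000 variable genes without the 10 members and 40 other pathway genes, 30 components and 20 neighbours, Leiden clusters were made at resolution 1 (Python 3.11.15, scanpy 1.11.5, igraph 0.11.9, seed 1), and endothelial-like cells were clustered again in the same way. Clusters were named by the 28 marker lists from their 10 leading genes by fold, with at least 3 markers at 10 CPM. Without a leading marker, a mean z-score of 1 with a lead of 0.5 was needed, and limits on Col2a1 (5000 CPM for chondrocytes, 20000 CPM for non-skeletal names), on Ptprc (50 CPM for skeletal names) and on marked doublets (50%) applied. These limits were set after the clusters were seen, and rebuilt names may differ from those of the study. Scrublet marked 588 barcodes (4.15%) at an expected rate of 10%. They were kept, and left out in an alternative.

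Intervals are exact Poisson for CPM and Clopper-Pearson for shares, both at 95%. Log2 ratios had 1 CPM added, with an interval that combines the 2 counting errors and was tested on simulated data. A gene with 0 UMIs was given an upper limit of 3. Shares of cells with a UMI were set side by side once 5000 UMIs had been drawn from each cell, which left out 89 of 817 endothelial-like and 9 of 102 mural-like cells. Levels of different genes were not ranked against each other. Coordinates are from GENCODE M21, which held 31011 of the 31053 identifiers. Notch1, Notch3, Notch4, Dll1 and Dll4 overlap an annotated gene on the other strand, and Notch1, Notch2 and Jag2 one on their own strand, so some of their counts are uncertain. Members, gene lists and tests were chosen with earlier results of these data known. Named are the 10 members, Hes1, the fringe genes, pathway genes with 100 CPM in a class and a level over 2-fold above every other group, and for each member the 3 most alike genes. Hey2, Adam17, Aph1a, Rgs5, Stab2 and the leading genes of clusters and sub-clusters were named after their values were seen. Alternatives changed 1 choice at a time among cell filters, doublets, resolution, variable genes, the way a level is computed and the CPM added.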

Additional observations from a re-analysis of the deposited data

How the results depend on the processing

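No paired analysis was possible because the series holds 1 library of 1 mouse, and no replicate could be left out. The 9 of 10 members highest in endothelial or mural cells stayed 9 in all 13 alternatives, and the arterial count of 6 ran from 6 to 8 in the 10 alternatives that gave one. At 2000 genes, without doublets and at resolution 0.6 no arterial and sinusoidal pair was named. The class with the highest level was the same in 13 of 13 alternatives for 9 members and in 10 of 13 for Notch2. At 2000 genes Notch2 was highest in Cxcl12-abundant stromal-like and at resolution 0.6 in fibroblast-like cells. No monocyte-like class was named in either setting. With 3000 variable genes, where monocytes kept a class, fibroblast-like cells were highest at 63.0 CPM. No log2 ratio changed sign.

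Several log2 ratios moved beyond their counting interval, and the cause was not tested. With at most 5% mitochondrial UMIs, Notch3 of mural over endothelial cells was 5.80, Heyl 4.44, and Jag1 of endothelial over osteoblast-lineage cells 1.68. That setting kept only 22 mural-like and 278 endothelial-like cells. With at most 20%, Jag1 was 1.60 and Dll4 of endothelial over the next class 3.54. With at least 2000 genes Dll4 was 2.99, and with at least 1000 genes Heyl was 5.00. Without doublets Dll4 was 3.75, against basophil or mast cell-like cells since no dendritic class was named there, and Jag1 was 1.19. Jag1 was 1.14 at resolution 0.6, 1.62 at resolution 1.5 and 1.59 with 3000 variable genes. With at most 5% mitochondrial UMIs, without doublets and at resolution 0.6, no Cxcl12-abundant stromal-like class was named. The osteoblast group there may thus hold other cells than in the main setting. As a mean over cells Notch3 was 6.90 and Heyl 6.45, and after thinning Notch3 was 7.15. With 10 CPM added, Notch3 was 5.30, Heyl 3.95 and Jag1 1.16. Of the alternatives, 2 were chosen after seeing the data. Leaving out the 5 endothelial sub-clusters with 3 to 8 leading markers of another type gave 7.22 for Notch3 and 6.80 for Heyl. Taking marked doublets out of the same clusters moved none of these ratios. Of 2230 other values, 1848 stayed within their interval and 382 moved.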
